A study of Homo sapiens with 6 samples.

Results

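The LINC and antisense set comprised long non-coding RNA genes whose promoters were listed as bound by N-Myc, by JMJD6 or by both in CHP-134 cells, an established human neuroblastoma cell line. Its members were chosen by gene symbol among the listed promoters, as symbols that start with LINC (long intergenic non-coding RNA) or end in -AS1, -AS2, -AS3 (antisense RNA) or -IT1 (intronic transcript). The rule found 217 genes with 228 promoters among the 4229 genes and 5207 promoters of the lists. Of the 217 genes, 68 were LINC genes, 147 were antisense genes and 2 were intronic transcripts. Because binding selected them, their presence in the lists is a description and carries no test.

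The lists came from chromatin immunoprecipitation followed by sequencing (ChIP-seq) of CHP-134 cells under 1 condition, with 3 replicates for an N-Myc antibody and 3 for a JMJD6 antibody. The N-Myc samples were cross-linked with formaldehyde and the JMJD6 samples with disuccinimidyl glutarate before formaldehyde, so that antibody and cross-linking cannot be told apart. The labels do not say whether the replicates were separate cultures. A common peak is an interval called in all 3 replicates of a protein, and a listed promoter reaches 1 kb to each side of a transcription start site. The study carried out the ChIP-seq to examine whether N-Myc and JMJD6 form a complex on chromatin, at promoters, enhancers and super-enhancers. The files gave positions only, with no height, count or value per replicate, so the depth of a single peak is unknown, apart from the minimum number of reads per sample that the study states, and a spread between replicates could not be computed. Intervals below are exact binomial 95% intervals, which take in the counting error of the listed items and no other. Promoters that share a peak are not independent. Coordinates are 1-based on GRCh37.

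N-Myc is a basic helix-loop-helix transcription factor that binds DNA as a dimer with MAX, by preference at the E-box CACGTG, and its gene MYCN is amplified in aggressive neuroblastoma. JMJD6, of the jumonji domain family, has been reported to act on histone arginines and on RNA-associated proteins. Promoters of mammalian genes are often bidirectional: RNA polymerase starts in both directions from a shared nucleosome-free region, and many antisense genes are the named, stable product of the upstream direction. A peak at such a promoter can therefore not be assigned to the coding or to the non-coding gene from its position alone. LINC genes lie, by definition, away from coding genes, although some carry that name while sharing a promoter with a coding neighbor.

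The first sequences shown come from the 3 promoters bound by both proteins and 2 of the 3 bound by JMJD6 alone. They are not typical of the set, in which 222 of 228 promoters were listed for N-Myc only. Each is read on the plus strand of GRCh37, with the E-box CACGTG in capitals or, where a peak had none, the related letters CATGTG or CACGCG on either strand. For LINC02420 neither occurred in the peak, and the bases at its midpoint are shown without capitals. The windows lie at chr19:36822519-36822598 (exon of LINC00665), chr11:129873060-129873139 (exon of PRDM10-DT, the current name of LINC00167), chr17:75880397-75880476 (intergenic), chr7:39772733-39772812 (intergenic) and chr12:67835825-67835904 (intron of LINC02420).
LINC00665: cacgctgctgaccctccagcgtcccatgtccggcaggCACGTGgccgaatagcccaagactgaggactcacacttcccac
LINC00167: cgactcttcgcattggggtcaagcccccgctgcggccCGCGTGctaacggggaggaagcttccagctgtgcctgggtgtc
LINC01973: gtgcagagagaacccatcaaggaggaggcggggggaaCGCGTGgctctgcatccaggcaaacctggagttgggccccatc
LINC00265: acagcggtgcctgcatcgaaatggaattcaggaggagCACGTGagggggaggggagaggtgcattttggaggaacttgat
LINC02420: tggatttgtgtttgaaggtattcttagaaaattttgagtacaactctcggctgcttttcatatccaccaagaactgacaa

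Further windows show the E-boxes of N-Myc peaks that the account returns to, at LINC00839 (chr10:42971028-42971107, exon), GATA3-AS1 (chr10:8094474-8094553, exon; no CACGTG in the peak) and ENO1-AS1 (chr1:8938376-8938447, intron of ENO1).
LINC00839: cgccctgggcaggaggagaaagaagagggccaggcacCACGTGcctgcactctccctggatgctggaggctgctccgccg
GATA3-AS1: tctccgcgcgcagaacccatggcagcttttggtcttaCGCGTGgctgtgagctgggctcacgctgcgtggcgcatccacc
ENO1-AS1: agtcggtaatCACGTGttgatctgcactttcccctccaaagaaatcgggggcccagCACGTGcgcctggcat

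Nearly all of the set was in the N-Myc list, as were nearly all listed promoters. The N-Myc list held 225 of the 228 member promoters (214 genes), beside 5114 of all 5207 listed promoters. The JMJD6 list held 6 member promoters (6 genes), and 3 member promoters were in both. The members made up 4.40% of the 5114 N-Myc-listed promoters and 3.39% of the 177 JMJD6-listed promoters. Of the member promoters with N-Myc, 3 of 225 were also in the JMJD6 list (1.33%, 95% CI 0.276 to 3.85%), beside 1.64% of all N-Myc-listed promoters. Of the member promoters with JMJD6, 3 of 6 were also in the N-Myc list (50%, 95% CI 11.8 to 88.2%), beside 47.5% of all JMJD6-listed promoters. Both shares were close to the background, and the rule used these lists.

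The 217 genes were spread over all 22 autosomes and absent from the sex chromosomes. Chromosome 1 held 25, chromosome 3 held 23 and chromosome 17 held 19. The same counts over all listed genes were not taken, so these are a description only. The study describes the cells as MYCN-amplified, with a gain of the part of chromosome 17 that holds JMJD6. Whether copy number bears on the counts was not tested. All 217 symbols were matched to an annotation, 178 of them as listed in GENCODE version 44 and the rest through current or older symbols in RefSeq. The matched annotation called 211 of them long non-coding RNA. The other 6 were EMC3-AS1, LINC00634, LINC02210, LINC02210-CRHR1, LINC02581 and NCBP2-AS2, some of which are now annotated as coding genes. The annotation has since renamed 25 members with the ending -DT (divergent transcript), among them LINC00167 as PRDM10-DT and LINC01715 as TAF12-DT. The name LINC therefore did not always mean a lone gene. For 204 of 226 promoters with a matching symbol at the locus (90.3%) the listed start site lay within 100 bp of an annotated one.

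Most members contributed 1 promoter. OSER1-AS1 had 3 listed start sites, all covered by 1 peak of 274 bp shared with OSER1. GATA3-AS1, EIF3J-AS1, LINC00933, LINC01215, LINC02028, LINC02036, LINC02210, PPP4R1-AS1 and UBAC2-AS1 had 2 each. The pair of LINC02036 start sites on chromosome 3 lay apart and held separate peaks of 384 and 324 bp, whereas the peak at LINC02028 was the same for both of its start sites.

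Among annotated genes, the share of LINC and antisense genes with an N-Myc peak was higher in value beside a coding start site. Of 4142 long non-coding genes in GENCODE that fit the symbol rule, 337 had a common N-Myc peak within 1 kb of a start site (8.14%, 95% CI 7.32 to 9.01%), beside 14.3% of all annotated coding and long non-coding genes. This count rests on GENCODE start sites and the 217 genes on the authors' RefSeq start sites, so the numbers are not the same count. Where a coding start site lay within 1 kb, 207 of 1056 LINC and antisense genes had a peak (19.6%, 95% CI 17.2 to 22.1%). Where none did, 130 of 3086 had one (4.21%, 95% CI 3.53 to 4.98%). Beside a coding start the same peak can count for both genes, so the higher share there is partly given by the way of counting.

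Both name classes had the higher share beside a coding start, where a peak of the coding gene can count for both genes. Most LINC genes with a peak had no coding start nearby. Antisense and intronic-transcript genes had a peak in 189 of 979 cases beside a coding start (19.3%) and in 38 of 932 cases without one (4.08%). For LINC genes it was 18 of 77 (23.4%, 95% CI 14.5 to 34.4%) and 92 of 2154 (4.27%). Coding genes themselves had a peak in 4194 of 20087 cases (20.9%, 95% CI 20.3 to 21.4%), within the interval of the LINC and antisense genes beside a coding start. Other long non-coding genes showed 19.6% with and 3.32% without a coding start. The raw difference between antisense genes (11.9%) and LINC genes (4.93%) was thus not detectable within either stratum, where the intervals overlapped. Coding genes have more annotated start sites, and with the outermost start site alone the shares were 6.88% for LINC and antisense genes and 16.5% for coding genes. JMJD6 peaks were rare in every class, at 10 of 4142 LINC and antisense genes (0.241%, 95% CI 0.116 to 0.444%) and 157 of 20087 coding genes (0.782%), beside 0.533% of all annotated genes.

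**Figure D1:**
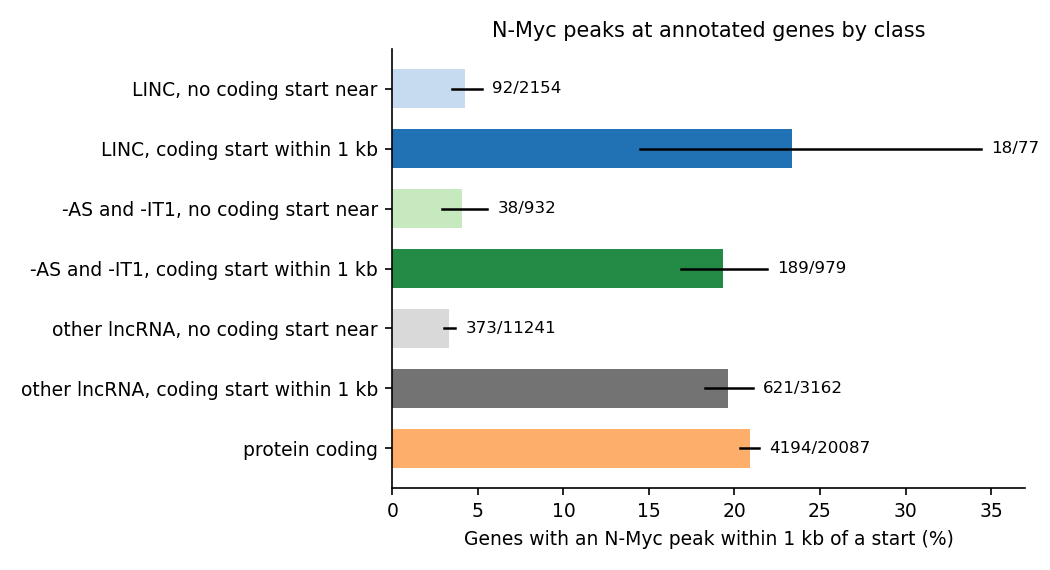
Share of annotated genes with a common N-Myc peak within 1 kb of a start site (x axis, %) by gene class and by the presence of a coding start site within 1 kb. Lines are exact binomial 95% intervals and labels give genes with a peak over genes in the class. LINC genes had a peak in 23.4% of cases beside a coding start and in 4.27% without one, and antisense genes in 19.3% and 4.08%. Beside a coding start the same peak can count for both genes.

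N-Myc peaks at the member promoters resembled those at other promoters in width. The member promoters held 228 common N-Myc peaks. Of these, 84 lay at no listed promoter outside the set (lone peaks), although some lay at more than 1 member. The other 144 also lay in the promoter of a listed gene outside the set (shared peaks). Their median width was 448.5 bp (95% CI 417 to 487, range 203 to 1853 bp), beside 452 bp (95% CI 443 to 460) for 3322 peaks at other listed promoters and 405 bp for 6622 peaks at none. Of the 225 N-Myc-listed member promoters, 196 held 1 peak, 21 held 2 and 1 held 3, and 28 of the 228 peaks lay within 1 Mb of an assembly gap. Width is the only property of a peak's size that the lists give, and it was not tested between the groups.

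The 10 member genes with the widest N-Myc peaks were of both name classes. PRR34-AS1 on chromosome 22 had the widest, at 1853 bp, within a super-enhancer. LINC01719 followed at 1440 bp and RBM15-AS1 at 1363 bp, the latter beside RBM15, an RNA-binding protein of the m6A methylation complex. The next were LINC02078 (1322 bp), DDX11-AS1 (1310 bp), opposite the helicase gene DDX11 that acts in sister chromatid cohesion, and LINC00324 (1294 bp), with no other listed gene in the peak. FBXL19-AS1 had 1280 bp, SLC16A1-AS1 1279 bp opposite the lactate transporter gene SLC16A1, LINC01132 1250 bp and LINC01816 1205 bp. The peaks at LINC01719, LINC02078 and LINC01132 were among those near an assembly gap. Of these 10 genes, 5 were antisense genes whose partner lay in the same peak and 5 were LINC genes.

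Peaks lay close to the member start sites, on either side of them. The nearest peak's midpoint was a median of 229.5 bp from the start site (95% CI 163 to 284, n = 218 promoters with a peak), beside 222 bp at 4765 other promoters. A peak covered the start site itself at 115 of 218 member promoters (52.8%, 95% CI 45.9 to 59.5%), beside 53.5% of the others. The midpoint was downstream of the start site at 118 of 218 member promoters (54.1%, 95% CI 47.3 to 60.9%) and at 39.9% of the other promoters (95% CI 38.5 to 41.3%), and the intervals did not overlap, although the difference was not tested. The median signed distance was 28.5 bp downstream for members and 64 bp upstream (-64 bp) for the others. The downstream share was 79 of 134 (59.0%, 95% CI 50.1 to 67.4%) where a gene on the opposite strand shared the peak and 38 of 79 (48.1%, 95% CI 36.7 to 59.6%) where no other gene did. At other promoters both kinds were near 40%, at 40.1% and 39.8%. The difference between the 2 kinds of member promoter was not tested, and their intervals overlap.

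**Figure D2:**
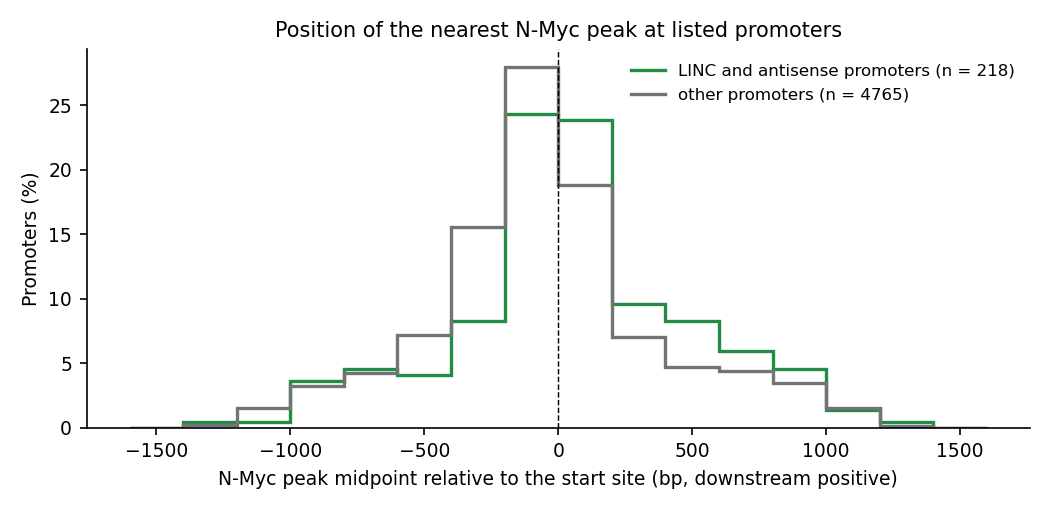
Percent of promoters (y axis) by the distance of the nearest N-Myc peak midpoint from the start site in bins of 200 bp (x axis, bp, downstream positive), for 218 LINC and antisense promoters and 4765 other promoters. Both peak at the start site, with the other promoters shifted upstream.

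The limit of 1 kb that defined a listed promoter cut through a continuous range of distances. The member start sites just inside it were the farther one of LINC02028, 946 bp from the edge of a peak, GABPB1-AS1 at 898 bp and VLDLR-AS1 at 883 bp. The nearer start site of LINC02028 lay 334 bp from the midpoint of the same peak. Just outside, and not listed, were SLC38A2-AS1 at 1037 bp, KCNJ2-AS1 at 1045 bp and CHL1-AS2 at 1046 bp, by their annotated start sites.

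Many member peaks were shared with another gene, most of them at antisense members. At 139 of 218 member promoters the peak also lay in the listed promoter of another gene (63.8%, 95% CI 57.0 to 70.1%), beside 38.5% of other promoters (95% CI 37.1 to 39.9%). It was 118 of 146 for antisense promoters (80.8%, 95% CI 73.5 to 86.9%) and 19 of 70 for LINC promoters (27.1%, 95% CI 17.2 to 39.1%). The names follow genome position, so this contrast is partly given by the naming. Counted by gene, 48 of 65 LINC genes with a peak were the only listed gene in it, against 27 of 141 antisense genes and 0 of 2 intronic transcripts.

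A partner on the opposite strand that was not itself a LINC or antisense gene was found for 127 member genes, 112 antisense and 15 LINC. The partner was protein coding in 119 pairs, and 90 antisense genes were paired with the gene after which they are named. HOXC-AS1, named after the HOXC cluster, was paired with HOXC9. The remaining antisense genes are named after a different gene from the one they share the peak with. CRTC3-AS1 shared its peak with BLM, a helicase of DNA repair, and PXN-AS1 with RPLP0, a ribosomal stalk protein. WEE2-AS1 shared its peak with SSBP1, which binds mitochondrial single-stranded DNA. In 80 pairs the genes were head to head, with start sites a median of 151 bp apart (95% CI 117 to 186, range 13 to 1787 bp). In 47 pairs the 5′ ends overlapped, so that each start site lay inside the other gene, with a median overlap of 395 bp (-395 bp as a signed separation).

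The N-Myc peaks often could not be given to either gene of a pair. A pair shared more than 1 peak in 14 of 127 cases. Shared peaks covered both start sites in 47 pairs, only the member's in 22, only the partner's in 18 and neither in 40. Where several peaks were shared, positions, widths and E-boxes were taken from the one with its midpoint nearest to the center between the start sites. The midpoint was nearer to the member's start site in 69 pairs and to the partner's in 58. Split by arrangement, it was nearer to the member in 52 of 80 head-to-head pairs (65.0%, 95% CI 53.5 to 75.3%) and in 17 of 47 pairs with overlapping ends (36.2%, 95% CI 22.7 to 51.5%). It lay between the start sites in 26 of 80 and 15 of 47 pairs. At CRTC3-AS1 the peak of 862 bp covered both start sites, which were 186 bp apart head to head to BLM. At HIF1A-AS1, opposite the hypoxia response gene HIF1A, the 5′ ends overlapped by 423 bp (-423 bp) and the peak of 564 bp covered neither start site.

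**Figure D3:**
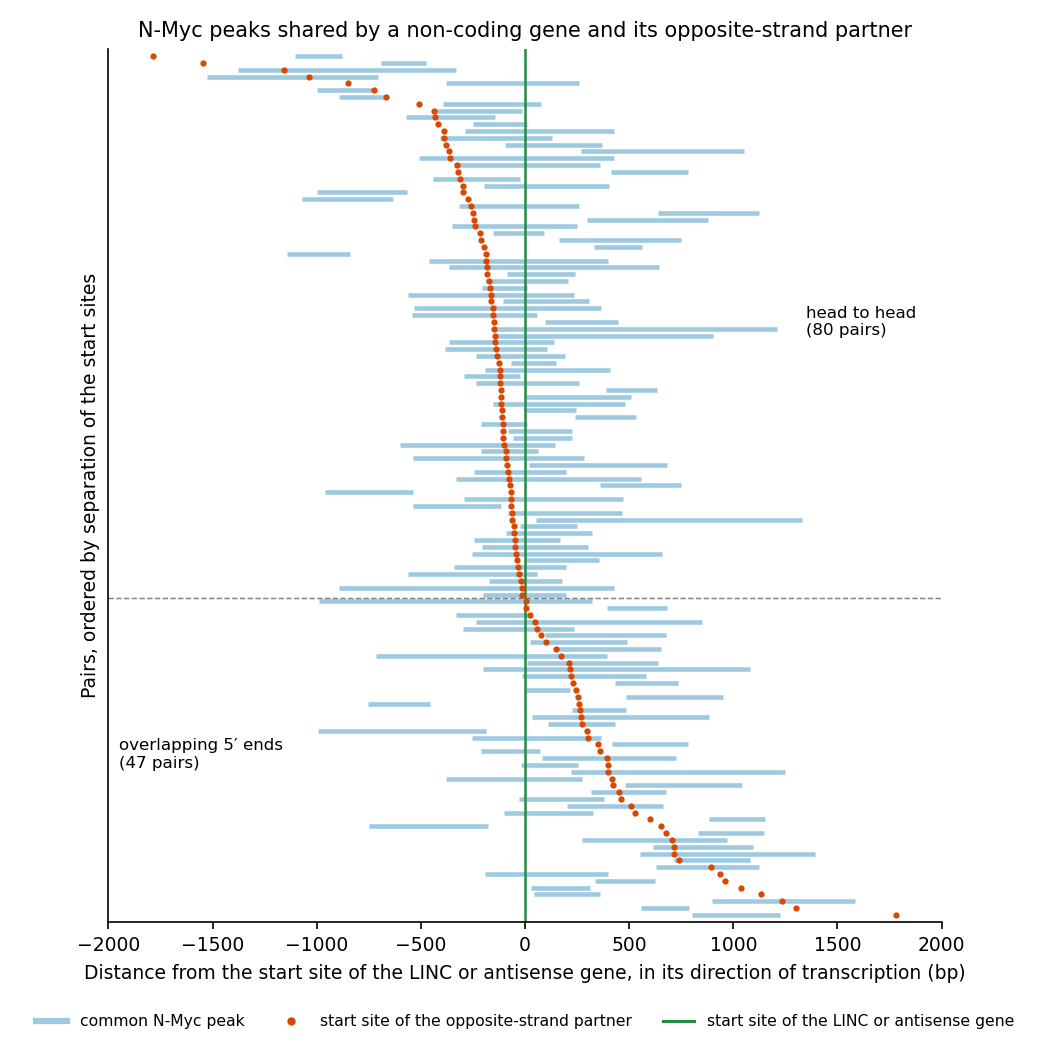
N-Myc peaks (blue bars, 1 shared peak per pair) at 127 pairs of a LINC or antisense gene and its opposite-strand partner, 1 pair per line, ordered by the separation of their start sites. The x axis is the distance from the start site of the non-coding gene (green line) in its direction of transcription (bp) and dots are the partner's start site. The dashed line separates 47 pairs with overlapping 5′ ends from 80 head-to-head pairs.

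The coding partners included housekeeping genes and developmental regulators. The role groups here were put together after the pairs were seen, hold 51 of the 127 pairs, and are a description only. They are not complete, because other partners with such roles were left out. Counts within a group therefore cover the chosen pairs and not every pair of that role. Over all pairs, CACGTG was in the peak of 33 of 80 head-to-head pairs and 16 of 47 pairs with overlapping 5′ ends. The 144 member peaks shared with a gene outside the set had a median width of 465 bp. Differences between role groups were not tested. Partners in RNA processing formed 10 pairs, among them the helicase gene DDX39B, the cap-binding gene NCBP2 and the splicing gene SRRM2. Their peaks had a median width of 705.5 bp (range 326 to 1363) and 2 of 10 held CACGTG. Partners in translation and ribosome assembly formed 6 pairs (DARS, EIF6, MRPS16, RPL34, RPLP0 and RRS1), with a median width of 488 bp and CACGTG in 1 of 6. In these 6, shared peaks covered the member's start site in 5 and the partner's in 6.

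The group of metabolic enzymes and transporters held another 6 pairs, including the enolase gene ENO1 and the lactate transporter gene SLC16A1, with CACGTG in 4 of 6. Partners left out of it included SLC12A9, DHRS4 and HEXA, with CACGTG in the peak, and FLVCR1, without it. Mitochondrial genes formed 4 pairs, namely COX10, NDUFA6, NDUFB2 and SSBP1, and DNA replication and repair genes 5, namely BLM, DDX11, HLTF, REV3L and RNASEH2B. The ubiquitin pathway formed 6, including FBXW7, a subunit of a ubiquitin ligase that targets Myc proteins, opposite LINC02486. The group of transcription factor genes held 14 pairs, including JUN opposite LINC01135 and SOX11, a factor of neural development, opposite LINC01248. HIF1A, LEF1, SATB1 and HOXC9 lay opposite antisense genes. Left out of it were the partners ZBTB11, with CACGTG in the peak, and ZNF213 and PRDM10, without it. In the 14 chosen pairs the median width was 367.5 bp (range 216 to 823) and 8 of 14 peaks held CACGTG. Shared peaks covered the member's start site in 4 of them and the partner's in 4.

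The canonical E-box occurred at close shares in member peaks and in peaks at other promoters. CACGTG, which reads the same on both strands, occurred in 86 of 228 N-Myc peaks at member promoters (37.7%, 95% CI 31.4 to 44.4%), in 36.8% of peaks at other promoters (95% CI 35.2 to 38.5%) and in 31.6% of peaks at no listed promoter. In windows of equal width 5 kb downstream of the member peaks it occurred in 19 of 223 (8.52%, 95% CI 5.21 to 13%), and 5 kb upstream in 18 of 224 (8.04%). The share was 26 of 72 for peaks at LINC promoters (36.1%) and 60 of 156 at antisense promoters (38.5%). It was 36.9% at lone peaks, with no listed gene outside the set, and 38.2% at shared peaks. No difference in E-box share between lone and shared peaks was detectable at this number of peaks. With CATGTG and CACGCG added, on both strands, 71.5% of member peaks held a match, beside 67.0% at other promoters.

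In promoters of fixed length from RefSeq (300 bases on GRCh38.p14, 250 before and 50 after the start), CACGTG was present in 24 of 168 member genes with an entry (14.3%, 95% CI 9.37 to 20.5%), in 15.5% of other N-Myc-listed genes and in 7.43% of all genes. The E-boxes in member peaks lay a median of 87 bp from the midpoint (95% CI 66 to 112, 103 occurrences), beside 81 bp at other promoters. With its flanks the site read CCACGTGG in 12 of the 103 (11.7%, 95% CI 6.17 to 19.5%), beside 18.2% at other promoters.

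**Figure D4:**
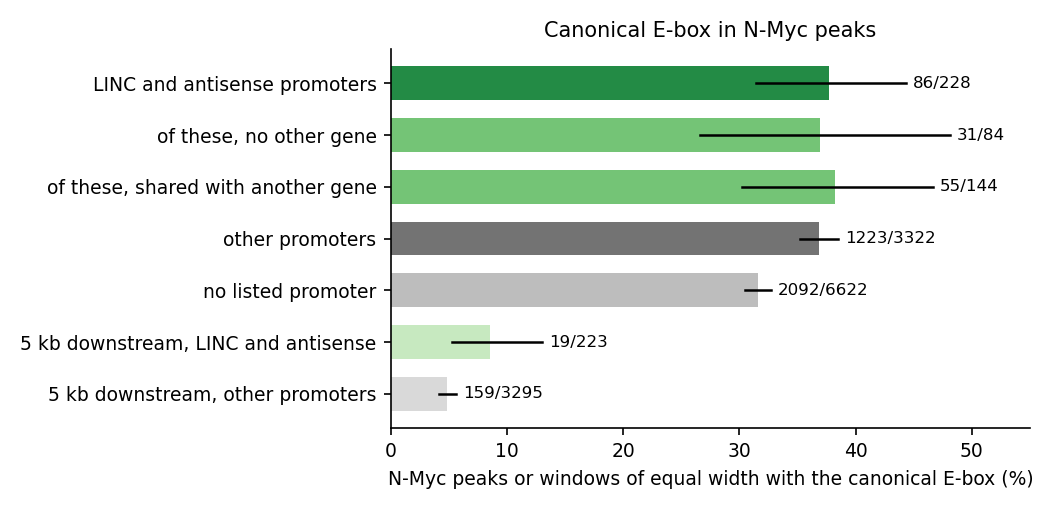
Share of N-Myc peaks, or of windows of equal width 5 kb downstream, that contain CACGTG (x axis, %), with exact binomial 95% intervals and counts as labels. The 228 member peaks stood at 37.7%, beside 36.8% at other promoters and 8.52% in the windows downstream of the member peaks. Peaks with no other gene are those with no listed gene outside the set.

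Most member peaks had 0 E-boxes (142) or 1 (76). A single peak held 5, the second peak of LINC01237 on chromosome 2 (chr2:242823875-242824862, 988 bp, near an assembly gap). A further 2 held 4, and 1 of these was at LINC02078 (1322 bp). Another 7 held 2, at ENO1-AS1, HEXA-AS1, LINC00324, LINC00921, LRRC75A-AS1, RBM15-AS1 and TSPEAR-AS2. ENO1-AS1 carried its pair in a peak of 302 bp inside the first part of ENO1, 604 bp upstream of its own start site to the peak midpoint (-604 bp).

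Lone and shared member peaks differed in CpG ratio and not detectably in GC content. Median GC content was 58.6% at member peaks and 58.2% at other promoters, and it was 57.6% (95% CI 55.3 to 58.9%) at lone and 59.2% (95% CI 58.2 to 60.3%) at shared member peaks. The ratio of observed to expected CpG had a median of 0.694 at member peaks (95% CI 0.639 to 0.730) and 0.731 at other promoters. It was 0.514 (95% CI 0.369 to 0.609) for the 84 peaks at member promoters alone, 0.741 (95% CI 0.701 to 0.767) for the 144 shared with a gene outside the set, and 0.278 at peaks outside listed promoters. The lone member peaks stood between those groups, and the intervals of the medians of lone and shared peaks did not overlap, while the middle ranges of the peaks did (quartiles 0.324 to 0.739 and 0.609 to 0.848).

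JMJD6 was listed at 6 member promoters, 5 of LINC genes and 1 of an antisense gene. At LINC00665 the JMJD6 and the N-Myc interval were identical (chr19:36822334-36822911, 578 bp), with the midpoint 3 bp upstream of the start site (-3 bp) and the E-box printed above at 61 bp downstream. At LINC01973 the shared interval (chr17:75880164-75880498, 335 bp) was intergenic and just covered the start site. At LINC00167 the shared interval (chr11:129872529-129873155, 627 bp) began 11 bp downstream of the start site and covered the start of PRDM10, a PR domain zinc finger gene on the opposite strand, at 212 bp. These 3 were the co-bound members, and each lay in a region listed as a typical enhancer for both proteins. Each had the same interval in both lists. The methods do not state how the edges of common intervals were set. The identical edges therefore do not place the proteins at the same bases.

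The other 3 JMJD6 intervals had no N-Myc peak. At LINC02420 the interval (chr12:67835632-67836097, 466 bp) was intronic, and the nearest N-Myc peak was 15.5 kb from it. At PSMB8-AS1 it was 716 bp long (chr6:32812229-32812944), in the major histocompatibility region beside the immunoproteasome genes PSMB8 and PSMB9, with the nearest N-Myc peak 123 kb away. At LINC00265 it was the longest of the 6, at 792 bp (chr7:39772510-39773301), covered the start site and held CACGTG 393 bp upstream (-393 bp), although the nearest N-Myc peak was 152 kb away. None of these 3 lay in a listed typical enhancer of either protein. CACGTG was present in 2 of the 6 intervals, at LINC00665 with N-Myc and at LINC00265 without it, beside 31 of all 561 JMJD6 peaks (5.53%). The median width of the 6 was 602.5 bp (range 335 to 792), beside 435 bp for all 561 JMJD6 peaks. With 6 intervals, no share among them can be placed within narrow limits.

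**Figure D5:**
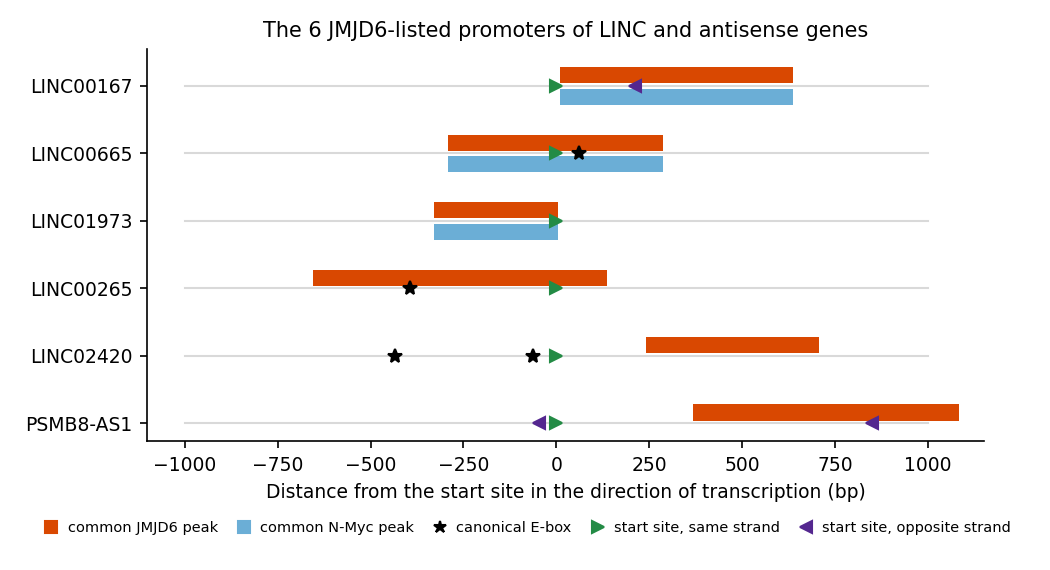
Positions of common JMJD6 peaks (orange) and N-Myc peaks (blue) at the 6 JMJD6-listed member promoters, in bp from the start site in the direction of transcription (x axis). Stars are CACGTG within 1 kb and triangles are listed or annotated start sites. LINC00167, LINC00665 and LINC01973 have the same interval in the lists of both proteins, and the other 3 have a JMJD6 interval alone.

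Most member promoters overlapped a region listed as an enhancer by at least 1 bp, and the difference from other promoters was not tested. A promoter overlapped a typical enhancer or super-enhancer listed for either protein in 169 of 225 cases (75.1%, 95% CI 68.9 to 80.6%), beside 83.0% of other promoters (95% CI 81.9 to 84.0%). The share was 57.7% for LINC promoters (95% CI 45.4 to 69.4%) and 82.9% for antisense promoters (95% CI 76.0 to 88.5%). Super-enhancers alone were overlapped by 10 of 225 (4.44%, 95% CI 2.15 to 8.02%), beside 2.13% of other promoters (95% CI 1.74 to 2.57%), and these intervals overlap. The enhancer lists were themselves chosen by N-Myc or JMJD6 binding, so a peak at a promoter and the listing of its region are not independent. To define enhancers, the study took out histone acetylation peaks within 1 kb of start sites and then joined nearby enhancers for ranking. A joined region can span a promoter, so an overlap does not make the promoter itself an enhancer. How far the joining bears on these shares, or on those of LINC and antisense promoters, was not tested.

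The member genes at a super-enhancer were 9, 7 antisense and 2 LINC. GATA3-AS1 is the divergent neighbor of GATA3, a transcription factor of sympathetic neuron development, and both of its start sites fell in a super-enhancer of 19.6 kb with 1 N-Myc peak (chr10:8093901-8094686, 786 bp). SATB1-AS1 lay in one of 30.2 kb with 2 peaks, beside the chromatin organizer gene SATB1. TGFB2-AS1 lay in one of 50.7 kb with 4 peaks, beside the growth factor gene TGFB2. The longest was at LINC00324, 85.1 kb with 10 N-Myc peaks and 1 JMJD6 peak. PRR34-AS1 had 53.6 kb with 9 peaks, CIRBP-AS1 58.7 kb with 4, FAM212B-AS1 28.6 kb with 6, LURAP1L-AS1 41.5 kb with 3 and LINC01132 25.5 kb with 1. Only the region at LINC00324 held a JMJD6 peak, and it was not at the LINC00324 promoter.

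The members were also looked up in 4 short lists of long non-coding genes, beside the 8.14% of annotated LINC and antisense genes with an N-Myc peak. The lists are too short to be read against that share. Of 15 genes tied to neuroblastoma or Myc, 4 were listed, namely GATA3-AS1, LINC00839, VPS9D1-AS1 and DDX11-AS1. Of 10 HOX antisense genes 1 was listed (HOXC-AS1), of 15 neighbors of cell cycle, replication and repair genes 2 (TMPO-AS1 and again DDX11-AS1, which is in both lists; 13 of the 15 were found in the annotation), and of 12 genes tied to neural tissue 1 (LINC00461). At LINC00839 the peak of 611 bp covered the start site and held the E-box shown above. VPS9D1-AS1, reported elsewhere as a Myc-induced transcript, had the narrowest member peak, at 203 bp, near an assembly gap. It held no CACGTG but 2 matches to CATGTG or CACGCG.

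HOXC-AS1 shared a peak of 223 bp and 1 E-box with HOXC9, a homeobox gene of trunk identity. TMPO-AS1 shared a peak of 572 bp with TMPO, which encodes a lamina-associated protein, and its midpoint lay 462 bp upstream of the TMPO-AS1 start site (-462 bp), within TMPO. LINC00461, a brain-expressed host transcript of miR-9, had a narrow peak of 212 bp centered 9 bp from its start site with no CACGTG. Absent from the N-Myc and JMJD6 lists were, among others, HAND2-AS1, GATA2-AS1 and TBX2-AS1, neighbors of core transcription factors of noradrenergic neuroblastoma cells. GATA3-AS1, the neighbor of GATA3 and looked up in the same short list, was in the N-Myc list. The antisense neighbors of such factors were thus not all absent.

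A small number of N-Myc-listed members had no common N-Myc peak. They were 7 of 225 promoters, from 6 genes, and the share that did hold one was 96.9% (95% CI 93.7 to 98.7%), beside 97.5% of other N-Myc-listed promoters. CIRBP-AS1, opposite the cold-inducible RNA-binding protein gene, had its nearest peak 2.8 kb from the start site. For EIF3J-AS1 (2 promoters), LINC01134, CEP83-AS1, SLC5A4-AS1 and SMIM15-AS1 the nearest peak was 109 to 312 kb away. Those promoters remain in every count taken from the promoter list and are left out of counts taken from peaks.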

How the data were processed

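CHP-134 ChIP-seq samples were grouped by the antibody in their labels (3 N-Myc, 3 JMJD6). Per the methods and the labels, the authors aligned reads to hg19 with BWA, called peaks in each replicate against input with MACS2 (version 2.1.1.20160309, q-value maximum 0.05), kept peaks found in all 3 replicates, took promoters as 1 kb around RefSeq start sites, and built enhancers with ROSE. The 12 deposited lists hold positions in bp and no score, ratio, count or coverage, so the only depth known is the minimum number of reads per sample that the study states, replicates could not be compared, and no test between conditions was possible.

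The members and gene lists were chosen with earlier results of these data known. From the lists, overlaps of at least 1 bp, distances, and motifs on both strands of GRCh37 were computed, with annotation from GENCODE version 44 lifted to that build. Member symbols absent from GENCODE were looked up in RefSeq. Promoters of 300 bases came from RefSeq (GRCh38.p14) and were matched by symbol for 168 member genes. Control windows lay 5 kb from each peak. Shares have exact (Clopper-Pearson) intervals and medians have order-statistic intervals, both 95%. The comparison across annotated genes left out chromosome Y and the mitochondrial genome. Named genes were all JMJD6-listed members, members of 4 lists, the 10 with the widest peaks, the 5 peaks with most CACGTG (ties included), members at super-enhancers or without a peak, and genes with most promoters; partner genes and those at the 1 kb limit were chosen after their values were seen. Some items covered by this rule are not reported here. Alternatives covered overlap, start sites, merged promoters, gaps and motif. Procedures were tested on simulated data. Python 3.11.15, numpy 2.4.6, SciPy 1.17.1, pysam 0.24.0 and matplotlib 3.10.9 were used.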

Additional observations from a re-analysis of the deposited data

How the results depend on the processing

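Of 23 alternatives over 9 results, 16 left the value within its interval and 7 moved it. The share of member promoters whose start site was covered by a peak rose from 51.1% of all 225 to 70.7% when a peak within 250 bp was counted. The share of annotated LINC and antisense genes with a peak (8.14%) was 4.51% when the peak had to cover a start site, 4.21% without genes beside a coding start, and 6.88% with the outermost start site alone, an alternative chosen after seeing the data. The share of promoters whose peak was shared with another gene (63.8%) was 21.1% when the peak had to cover both start sites. The E-box share (37.7%) was 22.8% within 100 bp of the midpoint and 71.5% with the wider motif. Each of these settings counts fewer or more positions by its construction. No paired analysis was possible because the lists pool the replicates, and leaving out a replicate could not be done for the same reason. The lists give no depth or score, so a stricter peak threshold was not tried. Peaks seen in fewer than 3 replicates were not analysed here.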
